A study of Mus musculus with 8 samples.

Results

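The GTPases of immunity-associated proteins (Gimap genes) are a family of small guanine nucleotide-binding proteins made mainly by lymphocytes. The 8 named members of the mouse cluster, Gimap1, Gimap3, Gimap4, Gimap5, Gimap6, Gimap7, Gimap8 and Gimap9, were followed by taking every peak that carries one of these symbols in 2 deposited lists of N6-methyladenosine (m6A) peaks. The rule found 20 of 29586 peaks for control and 19 of 23368 for PTC, and 8 of the 12413 genes named in either list. All 8 were found in each list. The lists came from mouse primary T cells grown as controls or treated for 24 h with PTC, an agent that the labels do not describe. Total RNA was extracted with Trizol, and each condition had 2 samples of m6A-bound RNA and 2 input samples, 8 samples in all. The labels do not say whether these came from separate animals or cultures. Peaks were deposited as 1 list per condition with no values per sample, so read depth is unknown, no difference between conditions has a replicate check, and no test between conditions was possible.

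Of 20 T cell marker genes, 20 had a peak in at least 1 list and 19 in both, Trbc2 in the PTC list only. B cell markers were present too, 9 of 10 in both lists with Cd79a in neither, as were 7 of 10 myeloid markers (6 in both, Tyrobp in the PTC list only) and 4 of 6 natural killer cell markers (1 in both, Ncr1 and Klra7 in the control list only, Fcgr3 in the PTC list only). Gimap genes are known to be active in several of these cell types, and the part of other cells in the Gimap peaks was not tested. Fewer cells of a type and less RNA per cell cannot be told apart in bulk RNA.

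Gimap proteins share a GTP-binding domain of the AIG1 type, first known from a plant defence protein, and several members sit on the membranes of intracellular organelles. They are best known for their part in the survival of mature lymphocytes: loss of some members leaves animals with few T cells. N6-methyladenosine is placed on mRNA by a methyltransferase complex that prefers the consensus DRACH, in which D stands for any base but C, R for a purine and H for any base but G, commonly near stop codons and in long exons, and reader proteins that bind it alter the decay and translation of the message.

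The stop codon of the main transcript lay inside a peak in both lists for all 8 Gimap genes, and the DRACH match nearest to it within the peaks of both lists is shown for each member, to place a possible acceptor adenosine under the peak that the members have in common. The sequences are from GENCODE M21 transcripts on GRCm38, 5′ to 3′ on the transcript strand, which is the minus strand for Gimap3 and Gimap6 and the plus strand for the others. Each run is 21 nt, and capitals mark the DRACH match, whose central A is the possible acceptor.
Gimap1, chr6:48743341-48743361: gaccagaaTAACAgataaagc
Gimap3, chr6:48765235-48765255: aggtggagAAACAgaggtggg
Gimap4, chr6:48691285-48691305: tttatgaaAGACTaggcttag
Gimap5, chr6:48753389-48753409: actttcatTAACTtgtgtatt
Gimap6, chr6:48702173-48702193: agacactgTAACCaaatagca
Gimap7, chr6:48724404-48724424: ctcactccTGACCactctccc
Gimap8, chr6:48659388-48659408: aaggctggGAACAgtttaggg
Gimap9, chr6:48678325-48678345: ttctttcaAAACTttgggacg
Counted along the joined exons from the first base of the stop codon, the marked A lay 5 nt before it in Gimap1, 2 nt before it in Gimap4 and 2 nt after it in Gimap6, where the match starts with the stop codon itself. It lay 19 nt before the stop codon in Gimap9 and 23 nt before it in Gimap5. Gimap8 had its nearest match 31 nt and Gimap7 53 nt downstream, and Gimap3 had none closer than 154 nt upstream. None of the 8 matches is GGACT, the form of the consensus most often methylated. DRACH matches occurred at 19.7 per kb of control and 19.6 per kb of PTC Gimap peak, so a match near any given base is common. No preference for the stop codon is read from these distances.

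GGACT occurred 18 times in the joined exons of the 8 genes. The 8 sites below lie in coding sequence or the 3′ UTR within peaks of both lists, and are shown as the GGACT sites there that both lists covered. Capitals mark GGACT. The first Gimap1 window crosses a splice junction, and its marked A is at chr6 48742508.
Gimap1, coding, across a junction: ggctcagaGGACTccagggcc
Gimap1, coding, chr6:48742548-48742568: agtgggcaGGACTgggaccgg
Gimap1, 3′ UTR, chr6:48743503-48743523: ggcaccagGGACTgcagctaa
Gimap6, coding, chr6:48702655-48702675: ccagaaagGGACTagagagtt
Gimap6, 3′ UTR, chr6:48701935-48701955: cattatctGGACTatttaata
Gimap8, coding, chr6:48658857-48658877: aggacactGGACTggcaggat
Gimap8, 3′ UTR, chr6:48659440-48659460: agggggaaGGACTagtggggt
Gimap8, 3′ UTR, chr6:48660773-48660793: atggtcttGGACTgcctaaac
A further 3 sites were inside a peak of 1 list only, and are shown because the borders of the peaks differed there. The Gimap1 and Gimap5 sites were covered in the PTC list and the Gimap3 site in the control list.
Gimap1, 5′ UTR, chr6:48739131-48739151: cacttcagGGACTgtcagcaa
Gimap5, 3′ UTR, chr6:48753681-48753701: agacacatGGACTgttgtggc
Gimap3, 5′ UTR, chr6:48767498-48767518: gcatagttGGACTggctggac

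The Gimap peaks were long and ran through most of the coding sequence. The joined exons of the 8 genes hold 22799 nt, of which control peaks covered 16419 nt (72.0%) and PTC peaks 16069 nt (70.5%). Across all listed genes the median cover was 21.8% and 18.4%. Coding sequence was covered almost whole: 8716 of 8829 nt (98.7%) for control and 8410 nt (95.3%) for PTC. The medians per gene over listed protein-coding genes were 22.5% and 17.9%. These are single values per list, with no error between samples.

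**Figure D1:**
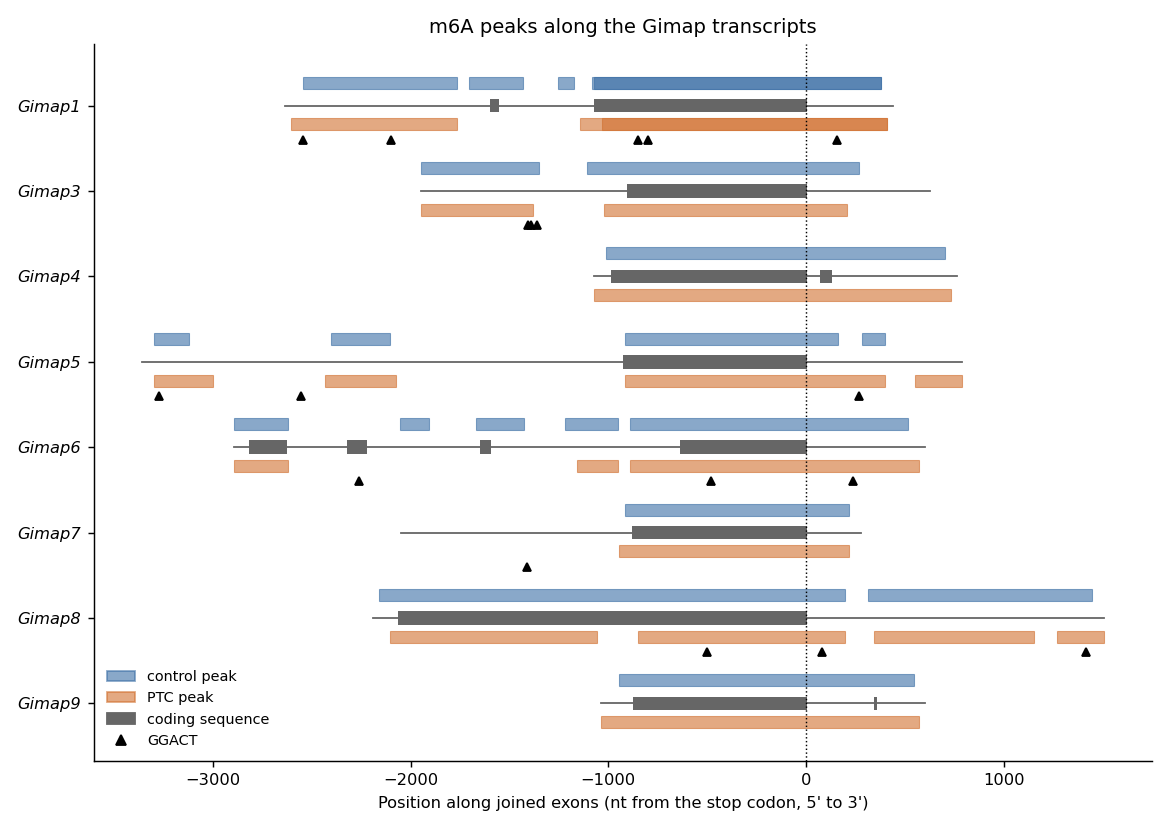
Peaks of the 8 Gimap genes drawn along their joined exons, in nt from the first base of the main stop codon, with control peaks above and PTC peaks below each gene (darker where lines overlap), coding sequence as grey boxes and GGACT as triangles. In each gene a peak of both lists spans the stop codon, and the share of covered bases common to both lists runs from 75.7% in Gimap5 to 97.4% in Gimap7.

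Every annotated coding base lay in a peak in 6 of 8 members in the control list (Gimap1, Gimap3, Gimap4, Gimap7, Gimap8 and Gimap9), where 2.83% of listed protein-coding genes had this. In the PTC list it was 4 of 8 (Gimap3, Gimap4, Gimap7 and Gimap9), where the share was 2.19%. Among listed genes whose coding sequence is no longer than that of Gimap8, the longest member with 2067 nt, the share was 3.81% of 6511 genes for control and 2.93% of 6352 for PTC. Gimap1 and Gimap8 were complete for control and reached 96.2% and 90.0% for PTC. In Gimap1, 43 coding nt lay only in a control line of 271 nt. Its −log10 false discovery rate of 4.66 is below the cut of 5 used further on. The line shares 125 nt with a peak of the antisense gene Gimap1os.

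**Figure D2:**
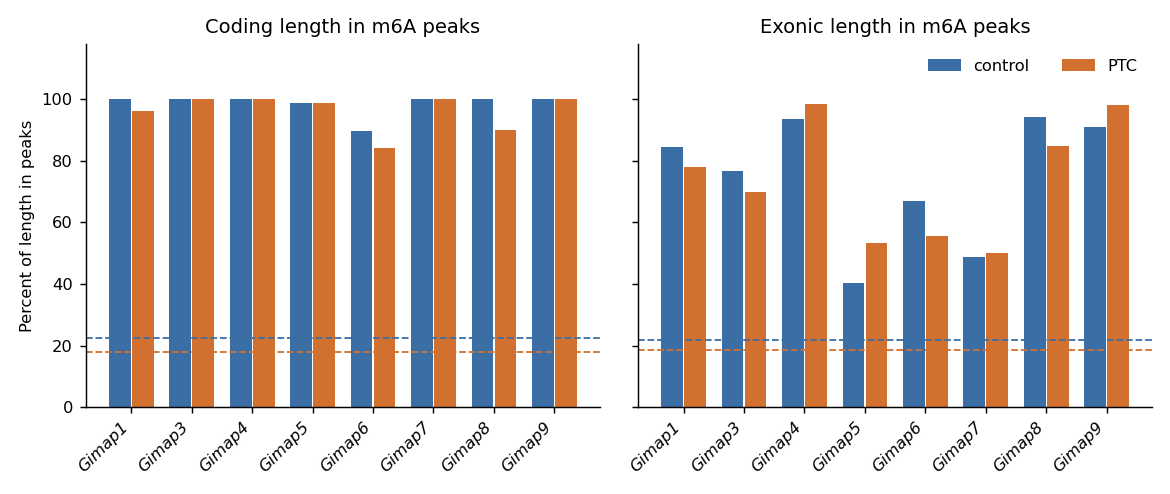
Percent of coding (left) and exonic (right) length inside peaks for each Gimap gene, with 1 bar per list and a dashed line per list at the median over listed genes. Coding cover lies between 84.1% and 100% in every gene and list, and exonic cover ranges from 40.4% in Gimap5 to 98.4% in Gimap4.

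Peaks of at least 1000 nt made up 10 of 20 Gimap peaks for control and 10 of 19 for PTC, where 8.42% and 8.35% of all peaks were that long. Overlapping lines of Gimap1, described below, count as separate peaks here. Each of the 8 genes had such a peak in both lists, against 19.5% of listed genes for control and 16.3% for PTC. Median widths were 927.5 nt and 1045 nt, with all-peak medians of 268 nt and 270 nt. A peak over the main stop codon, found in 8 of 8 members in each list, was present in 55.5% of listed protein-coding genes for control and 57.1% for PTC. By midpoint, 11 of 20 control and 11 of 19 PTC peaks were in coding sequence, 5 and 4 in a 3′ UTR, and 2 and 2 in each of the 5′ UTR and noncoding exons. Over all 26631 control and 20863 PTC peaks in protein-coding genes, 42.1% and 41.0% of midpoints were in coding sequence, 45.5% and 49.1% in a 3′ UTR, 5.87% and 5.75% in a 5′ UTR and 6.51% and 4.14% in noncoding exons.

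Gimap1, needed for the survival of mature lymphocytes, lies on the plus strand of chromosome 6 at 48739054 to 48743795 (GRCm38). Its 5′ peak was 780 nt for control and 840 nt for PTC. Its 3′ part carried a pair of lines that overlap in each list: 1530 and 1464 nt with folds of 5.07 and 5.22 in the control list, and 1554 and 1440 nt with folds of 5.78 and 5.79 in the PTC list. Each pair shares bases and makes 1 region when joined. Fold enrichment is the authors' own linear ratio with a scaling that is not stated, so folds of the lists are set side by side here and no change is read from them. A control line of 271 nt between these ends (48739983 to 48741537, fold 2.50) had no Gimap1 partner in the PTC list.

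Gimap5, whose loss leaves rats and mice short of T cells, lies just downstream at 48746197 to 48754210. It has the longest joined exons of the family, 4149 nt, and the lowest cover in the control list, 40.4%, with 53.3% in the PTC list. Its main peak ran from 48750471 to 48753583 for control and to 48753822 for PTC. Peaks covered 98.8% of its coding sequence in each list. The PTC list had a further peak at the very 3′ end (48753971 to 48754210, 240 nt, fold 14.7), which had no control partner, and the control list a 120 nt peak at 48753703 to 48753822 that the longer PTC peak took in. In all, 538 nt of Gimap5 were in PTC peaks only. Both peaks at its 5′ end, of 180 and 299 nt for control and 299 and 359 nt for PTC, had folds from 1.79 to 2.19, and those of control were the lowest of the family in that list.

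Gimap3, a close relative of Gimap5 on the minus strand at 48764464 to 48770851, had 2 peaks in each list. The longer covered the coding sequence whole and measured 1379 nt for control and 1229 nt for PTC, and 90.9% of the bases covered in either list were covered in both. The highest folds of Gimap3 were the lowest of the family, 2.90 for control and 3.47 for PTC. Yet its −log10 false discovery rate (FDR, the authors' value) was 167 and 315, which placed it at rank 145 of 11390 and 75 of 10859 genes. Gimap3 and Gimap5 share 190 sequences of 50 nt (7.52% of those in Gimap3). Reads of up to 50 nt from that sequence cannot be assigned to either gene, and the values of both are uncertain to that extent. The assignment of longer reads was not tested.

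Gimap4, a member linked to the death of T cells and carrying an IQ motif that binds calmodulin, lies on the plus strand at 48684549 to 48692060 and had 1 peak in each list, of 1719 nt for control and 1807 nt for PTC. It covered 93.6% and 98.4% of the exonic length of 1837 nt, and 95.1% of the covered bases were common to both lists. Its fold was 4.04 for control and 9.03 for PTC. Its −log10 FDR was 298 for control, and for PTC the FDR was too small to be listed (−log10 p of 326). Gimap9 (48676129 to 48679114, plus strand) had the same form, 1 peak of 1492 nt and 1612 nt with folds of 6.36 and 9.47. Gimap7, whose GTPase activity depends on dimers (48718621 to 48724636, plus strand), had 1 peak of 1133 nt and 1163 nt, 97.4% shared, which covered all coding bases but only 48.7% and 50% of its exons. None of Gimap4, Gimap7 and Gimap9 held a GGACT in its peaks, although they held 33, 23 and 37 DRACH matches for control and 33, 23 and 41 for PTC.

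Gimap6, which binds the autophagy protein Gabarapl2, is on the minus strand at 48701582 to 48708225. Its stop codon peak was 1405 nt for control and 1465 nt for PTC, and its FDR was too small to be listed in either (−log10 p of 345 and 534). It was the highest-ranked member, at rank 31 for control and 22 for PTC. In the PTC list the FDR of Gimap4 was also too small to be listed, and −log10 p set their order. It also had the most peaks in the control list, 5, against 3 in the PTC list. A 240 nt peak at 48703613 to 48703852 (fold 3.84) and a 151 nt peak at 48704091 to 48704241 (fold 2.66) had no PTC partner, and 451 nt of Gimap6 were in control peaks only against 60 nt in PTC peaks only. Both peaks lie upstream of the main stop codon with their midpoints in the 3′ UTR of another annotated Gimap6 transcript, and 56 of the 240 nt of the first are coding.

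Gimap8, the member with the longest coding sequence and repeated GTPase domains, spans 48647234 to 48660875 on the plus strand. The control list joined its 6 exon blocks into 1 peak of 2357 nt, and the PTC list held 2 peaks there, of 1046 and 1045 nt, that left part of the coding sequence between them uncovered. Further downstream the control list had 1 peak of 1134 nt and the PTC list 2, of 806 and 240 nt. Of the bases covered in either list, 86.7% were covered in both.

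Bases covered in either list numbered 17465 for the family, of which 15023 (86.0%) were covered in both. By gene, the members ran from 75.7% in Gimap5 to 97.4% in Gimap7. The median per gene was 57.0% over the 9825 of 9836 genes in both lists that GENCODE M21 holds. By peak, 18 of 20 control peaks (90.0%, 95% exact Clopper-Pearson interval 68.3% to 98.8%) shared a base with a PTC peak, against 60.2% of all control peaks. Of these, 17 were overlapped by a peak of the same gene, the short Gimap1 line above only by a peak of Gm28053. Of the PTC peaks 18 of 19 (94.7%, 74.0% to 99.9%) shared a base with a control peak, against 78.8% of all. The intervals cover counting error only. Peaks of one gene are not independent, and the part of peak width in these shares was not tested.

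All 8 Gimap genes had a peak in both lists, as did 79.2% of the genes in either list, so presence in both lists is read against that share and not as a result about the family. With peaks limited to −log10 FDR of at least 5, all 8 Gimap genes were still in both lists, beside 79.5% of genes. With peaks limited to a fold of at least 4 the count fell to 5 of 8 in both and 2 in the PTC list only (Gimap6 and Gimap7), beside 59.4% of genes in both and 16% in the PTC list only. Gimap3 then had no peak in either list. The values nearest this threshold were 3.99 for Gimap7 and 4.04 for Gimap4 in the control list.

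Strength by FDR and strength by fold gave different pictures of the same peaks. By FDR 7 of the 8 genes were among the top 1000 of each list, and 2 for control and 3 for PTC were among the top 100. The median Gimap gene had a stronger FDR than 98.4% of listed genes for control and 98.7% for PTC. By highest fold the median Gimap gene stood above 37.5% and 60.7%. A peak of fold at least 4 was found in 5 of 8 members for control and 7 of 8 for PTC, where 69.5% and 65.4% of genes had one; 7 of 20 control and 10 of 19 PTC peaks had such a fold, where 45% and 45.2% of all peaks did. The Gimap peaks were wider than the list median, as given above, and the part of width and read number in the ranks was not tested.

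**Figure D3:**
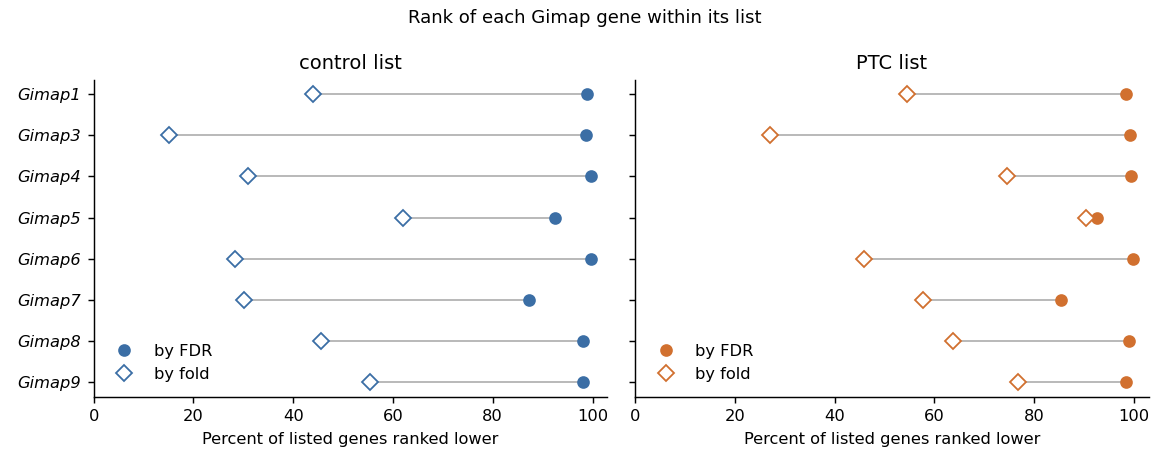
Percent of listed genes that each Gimap gene exceeds, by −log10 FDR and by highest fold, in each list. By FDR the values run from 85.4% to 99.8%, and by fold they run from 15.2% to 90.5%.

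Control folds ran from 1.79 to 7.33 with a median of 3.39, and PTC folds from 1.79 to 14.7 with a median of 4.93, where the medians of all peaks were 3.65 and 3.66. Gimap5 gave the highest fold of the family in each list. For PTC this was the 240 nt peak at its 3′ end, whose −log10 FDR was 6.29, with 48.3% of PTC peaks ranked lower.

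**Figure D4:**
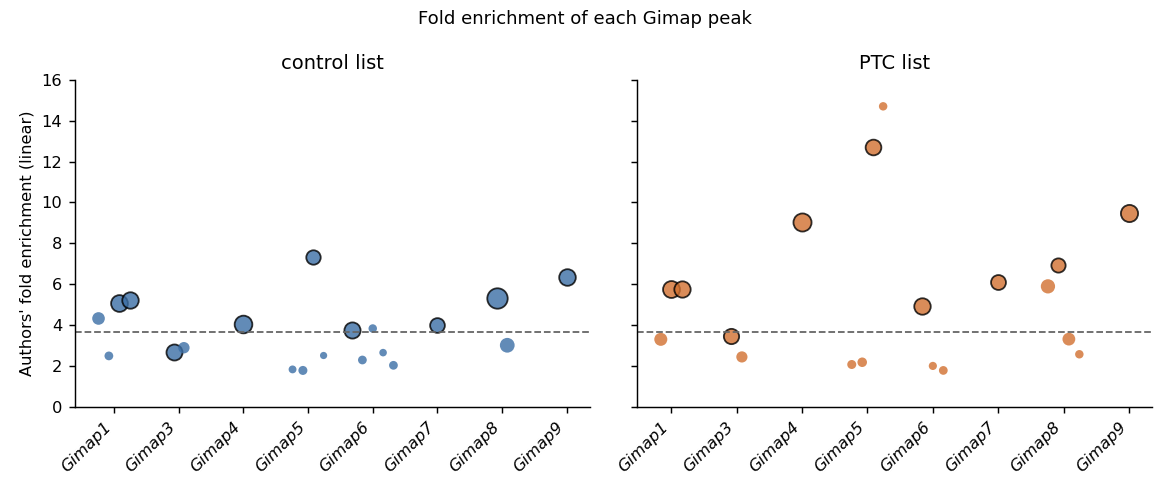
Authors' fold enrichment of every Gimap peak, a linear ratio, by gene and list, with the median of all peaks of the list drawn as a line. Of the 20 control peaks 10 lie under the line, and of the 19 PTC peaks 9 do.

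DRACH matches occurred at 19.7 per kb of control peak (352 matches, exact Poisson interval 17.7 to 21.9) and 19.6 per kb of PTC peak (343, 17.6 to 21.8), beside 21.2 and 21.9 per kb over all peaks. GGACT occurred 16 and 17 times, 0.895 per kb (0.512 to 1.45) and 0.971 per kb (0.566 to 1.56), beside 1.24 and 1.33. These counts run over lines, so a match under the overlapping Gimap1 lines counts for each of them. Counted once, 13 of the 18 GGACT sites (72.2%) lay in control peaks and 14 (77.8%) in PTC peaks. The densities over all peaks lay within these intervals, apart from DRACH in the PTC list, where 21.9 lay just above the upper bound. That PTC count takes in 29 and 26 matches of the overlapping Gimap1 lines, which cover mostly the same bases. Its interval is therefore too narrow, and no departure is read from it. A GGACT was present in 5 of 10 Gimap peaks of at least 1000 nt in each list, where 79.7% of all such control peaks and 79.6% of PTC peaks held one. The overlapping Gimap1 lines, each with the same 3 sites, count separately among these peaks. Of the 466 DRACH matches in the joined exons 327 (70.2%) lay in control peaks and 318 (68.2%) in PTC peaks, close to the share of exonic bases covered. A match is a description of the sequence and not a methylated site.

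Other genes lie over the family. The cluster spans 123.6 kb of chromosome 6, from 48647234 to 48770851, and 5 further annotated genes lie within it, of which Gm28053 and Gimap1os had peaks. Gm28053, a coding gene model from 48718607 to 48752644 that starts beside Gimap7 and ends within Gimap5, had 2 control peaks and 1 PTC peak, and the last blocks of 1 in each list share 136 nt with the main Gimap5 peak. Its folds of 2.75 and 2.37 there stand beside 7.33 and 12.7 for Gimap5. Of sequences of 50 nt, Gm28053 shares 149 with Gimap1, 105 with Gimap5, 32 with Gimap7 and 8 with Gimap3.

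Gimap1os, an antisense gene, had 3 peaks in each list. Its 1336 nt control peak shared 716 nt with the first Gimap1 peak, with folds of 4.53 and 4.33, and its 1277 nt PTC peak shared 806 nt with the Gimap1 peak, with folds of 3.40 and 3.31. The −log10 FDR values were 29.9 and 28.0 for control and 22.0 and 23.0 for PTC. Across the lists, of 600 control and 562 PTC pairs on opposite strands that shared at least 50% of each peak, 63.3% and 64.2% had folds within 1.1 times of each other. The use of strand in counting is not given in the sources used here, so the reads of Gimap1 and Gimap1os over this exon cannot be told apart. The other Gimap1 peaks lie outside it, apart from the 271 nt control line, which shares 125 nt with a Gimap1os peak.

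**Figure D5:**
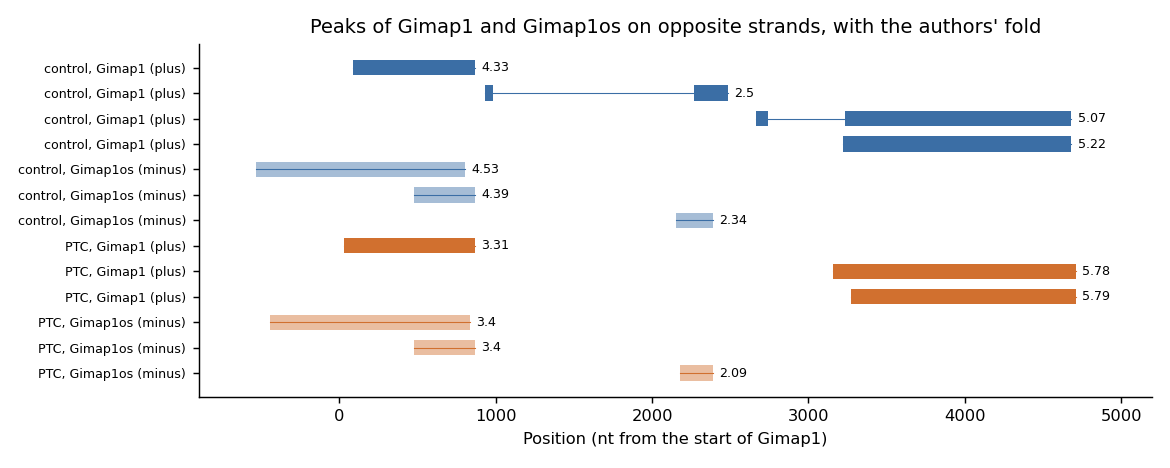
Peaks of Gimap1 and Gimap1os in each list along the locus, in nt from the start of Gimap1, with the authors' fold beside each peak. At the 5′ end the peaks on opposite strands overlap and carry folds between 3.31 and 4.53 in both lists.

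Of 18 genes of apoptosis, autophagy and lymphocyte survival, processes in which Gimap proteins are known to act, 14 had peaks and all 14 were in both lists, beside 79.2% of all genes. The 4 with none, Bax, Bak1, Gabarap and Gabarapl2, are named after their values were seen. Mcl1, which blocks apoptosis, had 2 peaks in each list, with a highest −log10 FDR of 288 and a fold of 3.77 for control. For PTC its FDR was too small to be listed and its fold was 4.36. Bcl2, a relative of Mcl1, had 5 control peaks and 8 PTC peaks with highest −log10 FDR of 140 and 298. Foxo1, a transcription factor of T cell quiescence, had 6 control peaks and 2 PTC peaks with highest values of 191 and 260, and Bcl2l1, another blocker of apoptosis, had 5 and 3 with 149 and 179. At −log10 FDR of at least 5, 12 of 13 were in both lists and Atg7, an autophagy enzyme with a highest value of 4.01 for control and 9.53 for PTC, was in the PTC list only, as were 9.86% of all genes at that threshold.

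Of 23 other GTPases of immunity, 21 had peaks and all 21 were in both lists, beside 79.2% of all genes. Irgm1, an interferon-induced GTPase, was at rank 15 for control and 54 for PTC, and Igtp at 14 and 17. Gimap6 at rank 31 and 22 stood beside these. Gbp2b and Rac2 had no peak in either list. The highest folds of Irgm1 were 5.61 and 9.53, those of Igtp 4.74 and 5.14, those of Iigp1 5.16 and 8.10, and those of Gbp4 4.06 and 3.49, beside 3.84 and 4.93 for Gimap6.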

How the data were processed

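Methylated RNA of mouse primary T cells, as control cells or with PTC, was immunoprecipitated for m6A and sequenced beside input, and the authors deposited 1 peak list per condition. Per the submitters' processing notes, BWA 0.7.12 and MACS2 2.1.0 were used on GRCm39. The roles of these tools, the peak caller's settings, the use of strand and any pooling of samples are not stated in the labels or headers used here. Per the file headers, each peak carries the authors' fold enrichment (a linear ratio), a log10 p-value and a log10 FDR; these were used as −log10 to rank and filter within a list. An FDR that the list gives as infinite is called too small to be listed. The deposited summary table was not used.

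Coordinates fit GENCODE M21 on GRCm38, where 99.9% of control and 99.8% of PTC peaks lay wholly in exons of their own gene, and are read as GRCm38. Lines were matched to members by symbol. Cover, overlap (at least 1 bp on the same strand, exon blocks), midpoints and motifs were computed with Python 3.11.15 and tested on simulated peaks. Motifs were searched on the transcript strand only. Rank by FDR used each gene's strongest peak, and genes of equal FDR, also those too small to be listed, were ordered by −log10 p. Members and gene lists were chosen with earlier results of these data known. The text names all members, genes that share bases with them or flank them, and, of the linked genes and other GTPases, the 4 with the strongest FDR and each in 1 list only. No p-value was computed. Depth is unknown, and intervals cover counting error only.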

Additional observations from a re-analysis of the deposited data

How the results depend on the processing

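Of 75 recomputed values 58 stayed within the set tolerance and 17 moved. With fold of at least 4, Gimap genes were 5 in both lists and 2 in the PTC list only. Linked genes were 5 in both, 4 in the control list only and 3 in the PTC list only. Of the other GTPases 1 was in the control list only. Over all genes at that fold, 59.4% were in both, 24.6% in the control list only and 16% in the PTC list only. Gimap peaks numbered 7 for control and 10 for PTC, of which 70.0% of the PTC peaks overlapped, beside 61.2% of all PTC peaks at that fold. With −log10 FDR of at least 5, 1 linked gene was in the PTC list only, as were 9.86% of all genes. With lists of equal length, 1 other GTPase was in the PTC list only, as were 13.6% of all genes. Midpoints within 100 bp gave an overlap of 68.4% for the Gimap PTC peaks, beside 49% of all PTC peaks. The control value also fell there, from 90% to 70%, beside 38.7% of all control peaks, and stayed within the tolerance. In a short window around the midpoint GGACT was at 0 per kb for control and 0.521 per kb for PTC, whose DRACH was at 16.7 per kb. Ranked by fold, the median percent of genes below was 37.5 and 60.7. Joining overlapping lines, chosen after seeing the data, moved nothing beyond tolerance. The cause of these moves was not tested. Leaving out a sample could not be run, because each list gives 1 value per condition. No paired analysis was possible because the sample numbers are not shared between groups and no result comes from a test.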

Other observations

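By FDR, but not by fold, the cluster's flanks were weaker than every Gimap gene. Zfp775, the nearest listed gene on one side, had 3 control and 4 PTC peaks with a highest −log10 FDR of 5.49 and 8.66. Tmem176a, on the other side, had 1 control and 3 PTC peaks with a highest of 3.95 and 4.68. The weakest Gimap gene by rank, Gimap7, had 54.0 and 63.0. The highest folds were 18.7 and 13.6 for Zfp775 and 6.35 and 4.52 for Tmem176a. Those of the Gimap genes ran from 2.90 to 7.33 for control and from 3.47 to 14.7 for PTC. Of the 5 non-member genes inside the cluster, Gm44262, Gm44226 and 4833403J16Rik had no peak in either list.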
